A study of Homo sapiens with 9 samples.

Results

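The genes of antigen presentation described here are 34 listed genes of the major histocompatibility complex (MHC) class I and class II pathways, with ligands of natural killer (NK) cells and 1 checkpoint ligand. They were chosen by name. An Ensembl entry was found for 33 of them, and 31 were in all 9 gene tables, which share 26636 genes. HLA-DRB1 and HLA-DQB1 were listed in the tables of 5 libraries. HLA-G is the gene without an entry, so its expression was not analysed, and it is part of the promoter windows only. Of the 31 genes, 21 had a mean of at least 1 FPKM (fragments per kilobase of exon, scaled to the depth of the library) over the 9 libraries and were tested among 13014 genes. The other 10 lay below that filter (HLA-F, PDIA2, ERAP2, CIITA, CD74, HLA-DRA, HLA-DPA1, HLA-DPB1, HLA-DMA and HLA-DMB).

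All 9 RNA sequencing libraries are labelled as unmodified BT549, a human breast cancer cell line that is usually described as mesenchymal-like and triple-negative. siWFDC21P-1 and siWFDC21P-2, siRNAs against the pseudogene transcript WFDC21P, were each used in 3 libraries, and a control siRNA (siNC) in 3. The siRNA (5 µl of a 10 µM stock) was given 24 h after seeding, and RNA was taken 48 h later. The labels do not say how many separate transfections the libraries stand for, so that p-values measure the spread between these libraries, which may be technical.

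MHC class I molecules carry short peptides of the cell's own proteins to the surface, where CD8 T cells read them. The proteasome cuts the peptides, the TAP1 and TAP2 transporter moves them into the endoplasmic reticulum, ERAP1 and ERAP2 trim them, and tapasin (TAPBP) loads them onto a heavy chain held by the light chain B2M. Interferons raise most of these genes through IRF1 and NLRC5, among others, whereas class II genes depend on CIITA and are mainly a feature of professional antigen presenting cells. Tumour cells often carry less class I than their tissue of origin, and the ligands MICA, MICB and ULBP2 engage the activating NK cell receptor NKG2D.

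The libraries fell into 3 cell backgrounds that did not follow the siRNA labels, and each listed gene was therefore set against the siNC library of its own background. The backgrounds were clusters over 12993 tested genes without the listed ones, with Pearson correlations of 0.927 to 0.986 within and 0.658 to 0.744 between them. Background 1 held siWFDC21P-1 replicates 1 and 2 and siNC replicate 1, background 2 held siWFDC21P-1 replicate 3 and the library labelled siNC replicate 2, and background 3 held siWFDC21P-2 replicates 1 to 3 and siNC replicate 3. The epithelial genes EPCAM and KRT19 reached 228 and 474 FPKM in siWFDC21P-1 replicate 3, and 209 and 925 in the library labelled siNC replicate 2. Elsewhere neither exceeded 0.872 FPKM, so that the label BT549 goes against the markers of background 2. The mesenchymal genes VIM, THY1 and COL1A2 were highest in background 3 (at least 162, 43.6 and 56.2 FPKM). Background 1 combined VIM (38.5 to 41.0 FPKM) with the keratin KRT8 (93.4 to 232 FPKM) and is called by its number. The other mesenchymal genes read, CDH2, THY1 and COL1A2, did not exceed 0.00698, 0.0173 and 0.0272 FPKM there, while CDH2 was at least 14.7 FPKM in background 3. Whether the label BT549 holds for background 1 was not tested. Each background had 1 siNC library, so siRNA effect and the deviation of that library cannot be told apart within it, and siWFDC21P-2 was measured in background 3 alone.

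WFDC21P itself stood at 0.0629, 0.767 and 0.227 FPKM in siWFDC21P-1 replicates 1 to 3, at 4.13, 3.32 and 2.12 FPKM in siWFDC21P-2 replicates 1 to 3, and at 3.08 FPKM in siNC replicate 1, 0.129 in the library labelled siNC replicate 2 and 6.87 FPKM in siNC replicate 3. It was below its own siNC library in 5 of 6 knockdown libraries, with siWFDC21P-1 replicate 3 as the exception. That library had 7 reads of it, against 4 in the library labelled siNC replicate 2, too few to judge the knockdown in background 2. Depth, recovered from the FPKM steps, was 28.1 to 29.7 M reads in the 5 libraries of backgrounds 1 and 2 and 16.3 to 17.4 M in the 4 of background 3. The tables of those 4 had another naming style and listed 29104 genes, against 34377 in the other 5. Depth, table style and background 3 therefore cannot be told apart. Intervals on ratios below are exact 95% intervals on whole reads and cover counting error only. Of the leukocyte markers, PTPRC did not exceed 0.160, LYZ 0.303 and SPI1 0.120 FPKM in any library, while CD14 reached 29.6 and 36.1 FPKM in background 2. The endothelial marker PECAM1 did not exceed 1.43 FPKM. The values are from bulk RNA, in which fewer cells of a type and less RNA per cell cannot be told apart.

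Of the 33 genes with a position, 18 lie in the MHC on chromosome 6 (hg38, GENCODE v29 models from 29722775 to 33314387). Neighbours there share bases in the annotation. The HLA-B model runs over HLA-C on the same strand, and PSMB9 overlaps both PSMB8 and TAP1 on the opposite strand, as HLA-DPA1 does HLA-DPB1. Whether counting used strand is not given in the sources used here, and reads of the near-identical and polymorphic HLA genes can be shared or lost, so that the levels of all these genes are uncertain.

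Promoter sequences were read for 29 of the listed genes (RefSeq, GRCh38.p14; 250 bases before to 50 after the start, 300 in all), to show which carry the elements through which interferon and NF-kB are known to act. GAAANNGAA, the core of the interferon-stimulated response element, was in 13 of the 29 windows on either strand, and in 8.11% of all 35116 windows of the table. TTCNNNGAA, the interferon element known as GAS, was in 2 (CD274 and IRF1; 7.66% of all), and the kappa B form GGGNNTTCC was in 5 (6.58% of all). Windows of 5 genes on which the values below turn are given 5′ to 3′ on the gene's strand, with matches to these 3 motifs in capitals. The windows of MICB, PSMB8 and HLA-C, on which values below also turn, held no match to these 3 motifs and are not printed. A match on the other strand appears as its reverse complement. The looser kappa B form GGGNNNTCC was in 10 of the 29 windows (21.0% of all) and is not marked by capitals. IRF1 held it 50 bases before its start.

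IRF1, minus strand, chr5:132490724-132491023: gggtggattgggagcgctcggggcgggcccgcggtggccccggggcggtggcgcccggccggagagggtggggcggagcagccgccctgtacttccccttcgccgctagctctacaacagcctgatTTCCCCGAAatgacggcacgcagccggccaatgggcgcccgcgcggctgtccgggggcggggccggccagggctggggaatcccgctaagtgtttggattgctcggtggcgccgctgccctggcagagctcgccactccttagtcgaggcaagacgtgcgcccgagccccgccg

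CD274, plus strand, chr9:5450292-5450591: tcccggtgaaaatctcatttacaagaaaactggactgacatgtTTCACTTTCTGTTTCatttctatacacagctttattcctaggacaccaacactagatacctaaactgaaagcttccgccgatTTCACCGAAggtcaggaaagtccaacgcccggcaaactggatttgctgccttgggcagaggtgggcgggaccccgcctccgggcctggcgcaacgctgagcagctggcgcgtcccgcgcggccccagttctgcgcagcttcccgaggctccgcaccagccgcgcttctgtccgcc

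TAP1, minus strand, chr6:32853655-32853954: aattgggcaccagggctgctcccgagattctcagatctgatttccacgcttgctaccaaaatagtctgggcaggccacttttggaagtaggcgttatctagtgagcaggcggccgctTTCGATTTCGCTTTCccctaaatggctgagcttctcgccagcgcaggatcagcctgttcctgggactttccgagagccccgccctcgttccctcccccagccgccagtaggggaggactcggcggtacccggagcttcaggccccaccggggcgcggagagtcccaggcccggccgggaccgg

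B2M, plus strand, chr15:44711267-44711566: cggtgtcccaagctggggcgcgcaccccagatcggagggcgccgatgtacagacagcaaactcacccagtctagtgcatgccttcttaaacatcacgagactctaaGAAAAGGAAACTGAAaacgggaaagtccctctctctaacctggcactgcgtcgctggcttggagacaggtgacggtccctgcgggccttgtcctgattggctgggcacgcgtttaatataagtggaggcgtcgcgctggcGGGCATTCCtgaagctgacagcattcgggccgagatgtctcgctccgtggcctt

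PSMB10, minus strand, chr16:67936801-67937100: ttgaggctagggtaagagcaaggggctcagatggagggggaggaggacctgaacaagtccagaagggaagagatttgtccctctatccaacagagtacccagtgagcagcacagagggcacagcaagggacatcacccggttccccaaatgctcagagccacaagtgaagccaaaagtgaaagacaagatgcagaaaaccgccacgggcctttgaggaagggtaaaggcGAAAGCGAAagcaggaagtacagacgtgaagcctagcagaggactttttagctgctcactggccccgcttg

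The windows of TAP1, CD274 and B2M each held a pair of overlapping GAAANNGAA matches, at 133 and 127, 207 and 201, and 144 and 138 bases before the start. CD274 also had the GAS letters 125 bases before its start, close to their place in IRF1 at 124 bases. PSMB10 had a single interferon core 21 bases before its start, and IRF1 had none in its window. TAP1 has more than 1 listed start, and the first was used. A match describes the letters of the window and is not a measured site.

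Levels by background are described first, with no test, since the backgrounds were themselves built from these libraries. Among the class I heavy chains, HLA-C and HLA-E were abundant in every library, at 34.9 to 73.6 FPKM and 20.8 to 78.2 FPKM. HLA-B was at 8.94 to 16.3 FPKM in background 1, 37.2 to 44.3 FPKM in background 2 and 27.3 to 35.2 FPKM in background 3. Background 1 thus lay below both others for HLA-B without overlap, as it did for HLA-E. HLA-F, a nonclassical class I gene, had 1.31 FPKM in siWFDC21P-1 replicate 3 and 2.12 in the library labelled siNC replicate 2, at most 0.0565 FPKM in background 3, and 0 reads in background 1, where 3 reads would have been at most 0.0239 FPKM in a library. The light chain B2M was the highest of the listed genes in every library (83.2 to 189.9 FPKM), and lowest in background 2.

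**Figure D1:**
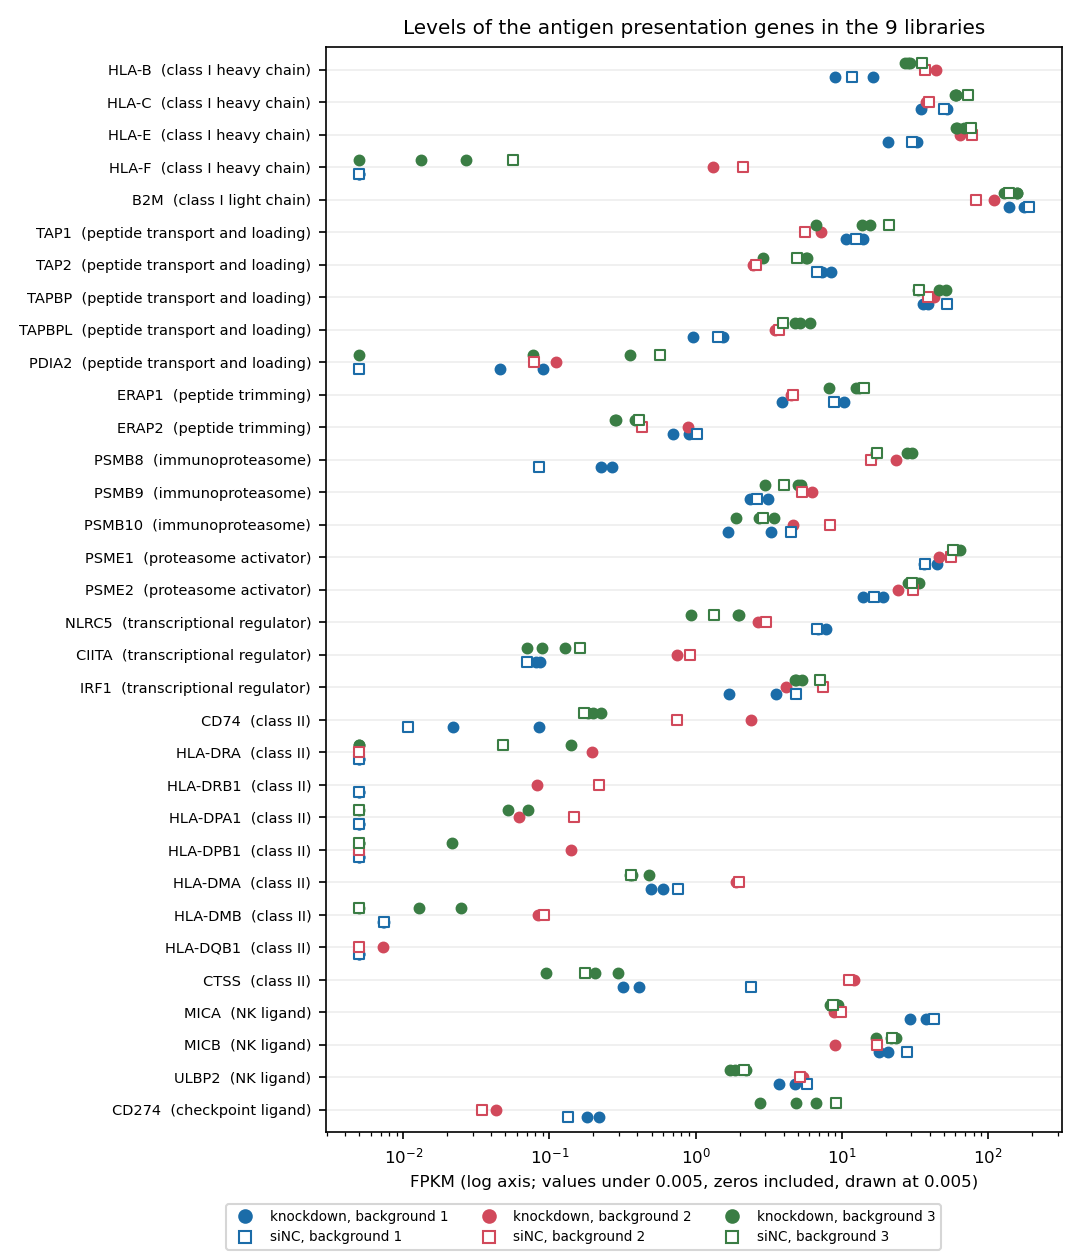
FPKM of the 33 listed genes with an Ensembl entry (log axis; rows are genes with their role) in the 9 libraries, with filled circles for knockdown libraries, open squares for siNC and colour for the background. PSMB8 lay at or below 0.269 FPKM in background 1 and at or above 15.8 FPKM in the others, and CD274 above 2 FPKM in background 3 alone.

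The peptide transporter genes ran differently from the heavy chains. TAP1 was at 10.7 to 13.9 FPKM in background 1, 5.64 to 7.25 FPKM in background 2 and 6.63 to 21.1 FPKM in background 3, and TAP2 was lowest in background 2 (2.46 to 2.59 FPKM). Tapasin (TAPBP) varied little, at 33.5 to 52.8 FPKM over all libraries. Its relative TAPBPL, a peptide editor, was at 0.954 to 1.54 FPKM in background 1 and at or above 3.50 FPKM elsewhere. PDIA2, a disulphide isomerase, did not exceed 0.573 FPKM. The trimming enzyme ERAP1 had 3.91 to 14.3 FPKM and its paralog ERAP2 0.282 to 1.02 FPKM.

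PSMB8, a catalytic subunit of the immunoproteasome, showed the widest contrast of the tested listed genes. It passed the filter on low values through backgrounds 2 and 3. It had 0.224 and 0.269 FPKM in siWFDC21P-1 replicates 1 and 2, against 0.0852 FPKM in siNC replicate 1, which is 13, 16 and 5 reads. In background 2 it had 23.7 FPKM in siWFDC21P-1 replicate 3, against 15.8 in the library labelled siNC replicate 2, and in background 3 17.1, 30.3 and 27.9 FPKM in siWFDC21P-2 replicates 1 to 3, against 17.5 FPKM in siNC replicate 3. The other catalytic subunits did not share this near-absence from background 1, where PSMB9 had 2.36 to 3.13 FPKM and PSMB10 1.66 to 4.47 FPKM. PSME1 and PSME2, the subunits of the PA28 proteasome activator, were at 36.9 to 64.4 FPKM and 13.9 to 34.0 FPKM over all libraries, with their lowest values in background 1.

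Of the regulators, NLRC5, the class I transactivator, was highest in background 1, where HLA-B was lowest. NLRC5 was at 6.77 to 7.78 FPKM in background 1, 2.69 to 3.05 FPKM in background 2 and 0.924 to 1.98 FPKM in background 3. CIITA, the class II transactivator, reached 0.748 FPKM in siWFDC21P-1 replicate 3 and 0.921 in the library labelled siNC replicate 2, and did not exceed 0.161 FPKM elsewhere. IRF1, an interferon-induced transcription factor, was at 1.70 to 7.46 FPKM.

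The class II chains HLA-DRA, HLA-DPA1 and HLA-DPB1 and the editor subunit HLA-DMB had few reads in every library. HLA-DRA had at most 7 reads in any library, HLA-DPB1 11, HLA-DMB 12 and HLA-DPA1 24, each of these highest values lying in background 2. In background 1, 0 reads of HLA-DRA were found, which allows up to 0.081 FPKM in a library (3 reads). Of HLA-DRB1, siWFDC21P-1 replicate 3 held 3 reads, against 8 in the library labelled siNC replicate 2, HLA-DQB1 had 1 read in siWFDC21P-1 replicate 3, and both had 0 in background 1. The invariant chain CD74, which guards the class II groove, had 2.40 FPKM in siWFDC21P-1 replicate 3 and 0.744 in the library labelled siNC replicate 2, against at most 0.225 FPKM in the 7 other libraries. HLA-DMA, the other subunit of the class II peptide editor, was at 1.88 and 1.98 FPKM in these same libraries and at 0.354 to 0.756 FPKM elsewhere, from 15 to 56 reads. Background 2 is also where CD14 was high, and the part of other cells in these class II levels was not tested.

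CTSS encodes cathepsin S, the protease that cuts the invariant chain. It was at 12.2 FPKM in siWFDC21P-1 replicate 3, against 11.3 in the library labelled siNC replicate 2, and stayed at or below 2.41 FPKM in the rest. The NKG2D ligand MICA was highest in background 1 (29.3 to 42.7 FPKM) and at 8.31 to 9.91 FPKM elsewhere. MICB had 17.9 to 28.0 FPKM in background 1 and 8.95 to 17.6 FPKM in background 2, which did not overlap, and 17.3 to 23.6 FPKM in background 3, which overlapped both. ULBP2 had 1.73 to 2.2 FPKM in background 3 against 3.74 to 5.83 FPKM in the others. CD274, which encodes the checkpoint ligand PD-L1, had 6.70, 2.76 and 4.89 FPKM in siWFDC21P-2 replicates 1 to 3, against 9.11 FPKM in siNC replicate 3. Outside background 3 it did not exceed 0.219 FPKM (26 reads).

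The spread of the listed genes between backgrounds was larger than their change with knockdown. Between the 3 siNC libraries the median range on the log2(FPKM + 1) scale was 1.18 over the 21 tested genes and 1.05 over all 13014. The range was over 1 for 14 of the 21, that is 66.7%, against 52.3% of all genes. The median of the absolute difference between a knockdown library and its own siNC library was 0.25 over the 21 and 0.26 over all. For 19 of the 21 the range between siNC libraries was larger than the difference in any knockdown library, the exceptions being IRF1 and MICB, and the same held for 72.5% of all genes.

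**Figure D2:**
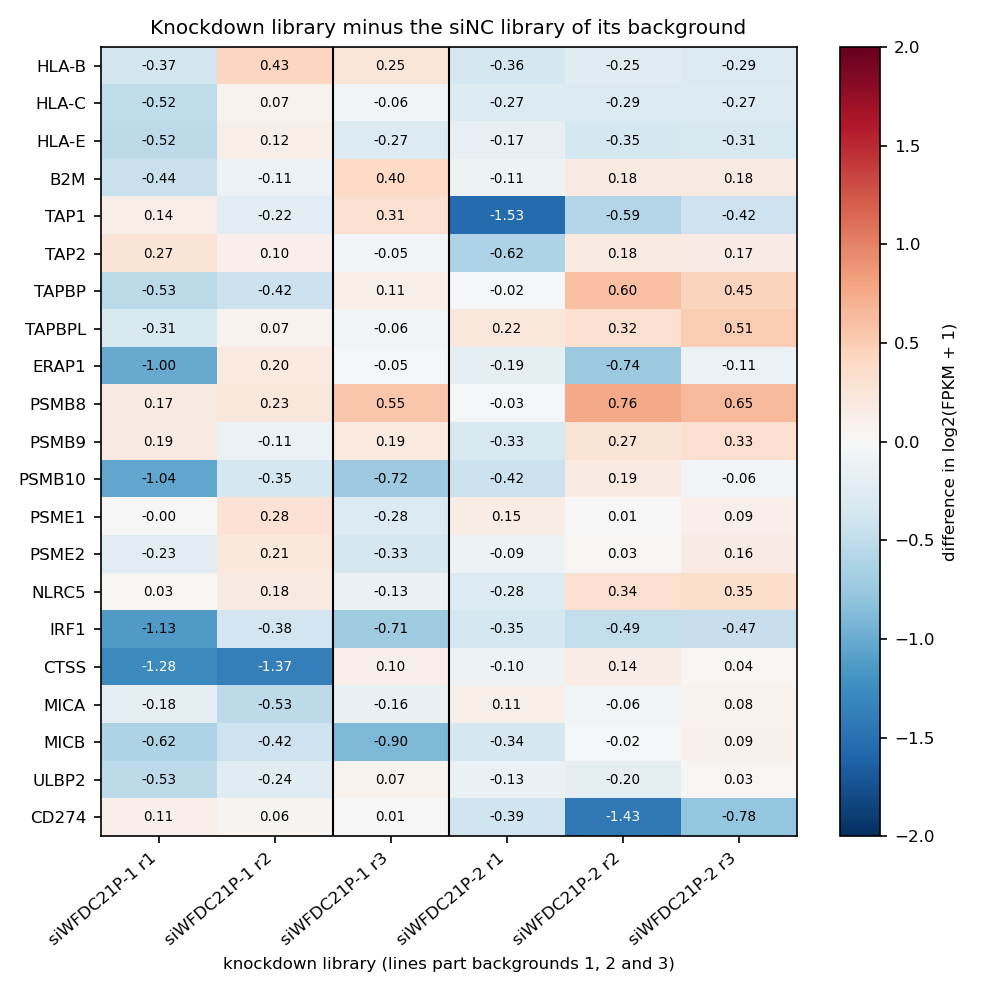
Difference in log2(FPKM + 1) between each of the 6 knockdown libraries (columns) and the siNC library of its background, for the 21 tested genes (rows), with blue for lower and red for higher in the knockdown library. IRF1 was below its siNC library in all 6 columns, and TAP1 and CD274 were lower in the 3 siWFDC21P-2 columns.

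siWFDC21P-1 was compared with siNC to ask which listed genes change with this siRNA. The regulator IRF1, the NKG2D ligand MICB and the immunoproteasome subunit PSMB10 stood at 34.7 to 73.8% of their own siNC library in all 3 knockdown libraries, while the heavy chains HLA-B, HLA-C and HLA-E and B2M lay on both sides of theirs. None of the 21 genes passed (limma; p adjusted by Benjamini-Hochberg over 13014 genes, threshold 0.05), and 4 had an unadjusted p under 0.05 (IRF1, MICB, PSMB10 and CTSS), with 0 of the 21 passing in limma-voom on recovered reads. Over all genes 3 passed, or 0.0231%, and 1790 had an unadjusted p under 0.05 (13.8%). IRF1, MICA, MICB and PSMB10 lay below their own siNC library in all 3 siWFDC21P-1 libraries, and CD274 and PSMB8 above it, 4 and 2 of 21, where 20.7% and 27.9% of all tested genes did so. CD274 passed the filter on low values through background 3, and its place above rested on 26, 22 and 5 reads in siWFDC21P-1 replicates 1 to 3, against 16 and 4 in their controls, with every interval including 100%. PSMB8 passed it through backgrounds 2 and 3, and in background 1 its place above rested on 13 and 16 reads against 5. The median fold change on the log2 scale was -0.15 over the 21 and 0.03 over all tested genes.

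IRF1 had 1.70 and 3.54 FPKM in siWFDC21P-1 replicates 1 and 2, against 4.89 FPKM in siNC replicate 1. In background 2 it had 4.18 FPKM in siWFDC21P-1 replicate 3, against 7.46 in the library labelled siNC replicate 2. Each of the 3 libraries was below its own control, at 34.7% (30.8 to 39.0%), 72.3% (65.9 to 79.1%) and 56.0% (51.6 to 60.7%) of it. The fitted log2 fold change was -0.73 ± 0.23 (SE; limma adjusted p = 0.255).

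MICB, a stress-induced NKG2D ligand, had 17.9 and 20.7 FPKM in siWFDC21P-1 replicates 1 and 2, against 28.0 FPKM in siNC replicate 1. In background 2 it had 8.95 FPKM in siWFDC21P-1 replicate 3, against 17.6 in the library labelled siNC replicate 2. All 3 libraries were lower, at 63.8%, 73.8% and 51.0% of their control with counting intervals below 100%, and the fold change was -0.68 ± 0.20 (limma adjusted p = 0.220). Its neighbour in family and place, MICA, was at 88.0%, 68.7% and 88.8% of its control in the same libraries (-0.27 ± 0.17, limma adjusted p = 0.537).

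PSMB10, an immunoproteasome subunit, had 1.66 and 3.29 FPKM in siWFDC21P-1 replicates 1 and 2, against 4.47 FPKM in siNC replicate 1. In background 2 it had 4.67 FPKM in siWFDC21P-1 replicate 3, against 8.35 in the library labelled siNC replicate 2. It lay at 37.2%, 73.7% and 55.8% of its control, with a fold change of -0.71 ± 0.26 (limma adjusted p = 0.301). The values of PSMB8 were on the other side, at 263%, 315% and 149% of its control, but rested on 13 and 16 reads against 5 in background 1. The interval of the first (88.0 to 942%) included 100%, so that a difference was not detectable there at this depth, while those of the second (110.4 to 1101%) and the third (137 to 163%, on 1334 reads against 899) lay above 100%.

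CTSS had 0.409 and 0.319 FPKM in siWFDC21P-1 replicates 1 and 2, against 2.41 FPKM in siNC replicate 1. Both knockdown libraries were at 17.0% and 13.2% of that control, whereas siWFDC21P-1 replicate 3 was at 108% (100.4 to 117%) of the library labelled siNC replicate 2. The fold change of -0.71 ± 0.30 (limma adjusted p = 0.358) rested on siNC replicate 1 and became 0.10 without it. CTSS passed the filter on low values through background 2.

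The class I heavy chains gave no common direction with siWFDC21P-1. HLA-B was at 75.4%, 138% and 119% of its own control in replicates 1, 2 and 3, HLA-C at 69.4%, 105% and 95.8%, and HLA-E at 68.8%, 109% and 82.6%. B2M was at 73.5%, 92.6% and 132%, and TAP1 at 111%, 84.9% and 128%. In siWFDC21P-1 replicate 1, 15 of the 21 genes were lower and 6 higher than in siNC replicate 1 (median log2 difference -0.37, against 0 over all genes), and in replicate 2, with the same control, 10 were lower and 11 higher (0.06 against 0.05). In replicate 3, 12 were lower and 9 higher (-0.05 against 0.03). Of all tested genes, 48.1%, 42.5% and 45.0% were lower in replicates 1 to 3. Replicate 1 also held the lowest ERAP1 value of background 1, at 3.91 FPKM in that library, 10.3 FPKM in replicate 2 and 8.82 FPKM in siNC replicate 1.

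Among class II genes in background 2, CD74 was higher beyond counting error, where siWFDC21P-1 replicate 3 had 215 reads, against 67 in the library labelled siNC replicate 2, 323% of the control (244 to 432%). HLA-DRA had 7 reads and HLA-DPB1 11 in siWFDC21P-1 replicate 3, against 0 each in the library labelled siNC replicate 2, higher beyond counting error. HLA-DPA1 had 10 reads, against 24, and was lower, at 41.9% of the control (17.9 to 91.0%). CIITA was lower as well, at 81.2% (69.6 to 94.7%). HLA-DMA was at 94.99% of the control, with an interval that included 100%, and HLA-F at 61.9% (50.6 to 75.7%). These genes were below the filter and were not tested, and 1 library a side gives no replicate check.

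**Figure D3:**
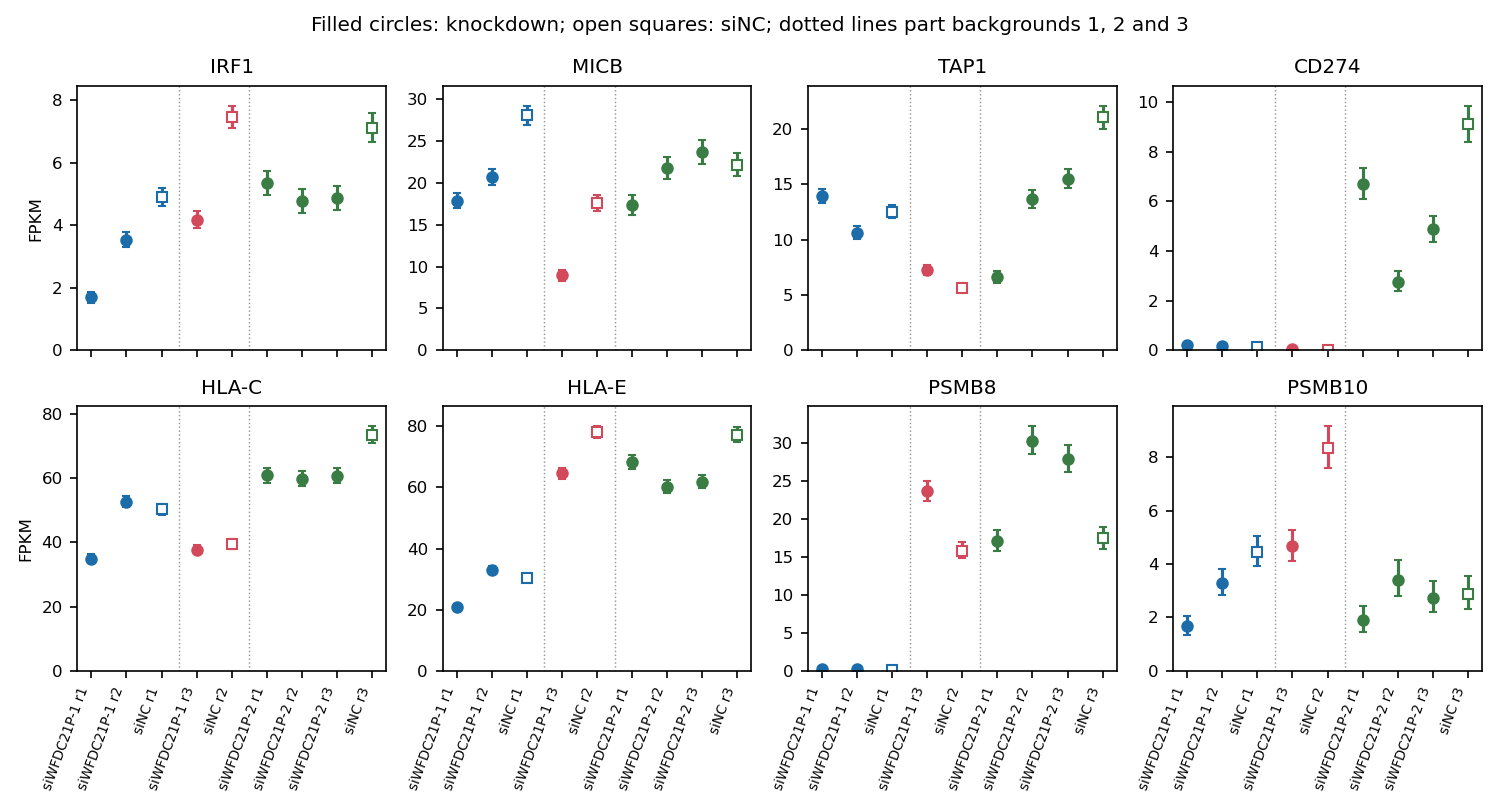
FPKM of 8 listed genes (linear axes from 0, one panel a gene) in the 9 libraries, with knockdown libraries as filled circles, siNC as open squares, colour for the background and bars for 95% counting intervals. IRF1 was lower than its siNC library in all 6 knockdown libraries, and HLA-C, HLA-E, TAP1 and CD274 were lower in all 3 siWFDC21P-2 libraries.

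siWFDC21P-2 was compared in the same way, its 3 libraries sharing siNC replicate 3. The checkpoint ligand CD274, the transporter TAP1, the heavy chains HLA-B, HLA-C and HLA-E, the trimming enzyme ERAP1 and IRF1 stood at 30.3 to 92.1% of that control in all 3 libraries. None of the 21 passed (limma), and CD274 alone had an unadjusted p under 0.05. Over all genes 0 passed (0%), with 682 at an unadjusted p under 0.05 (5.24%), and limma-voom called 0 of all genes and 0 of the 21. CD274, ERAP1, HLA-B, HLA-C, HLA-E, IRF1 and TAP1 lay below siNC replicate 3 in all 3 libraries, or 7 of 21, and PSME1 and TAPBPL above it, 2 of 21, where 26% and 26.9% of all tested genes did so. The median fold change was -0.09 over the 21 and 0.02 over all genes.

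CD274 had 6.70, 2.76 and 4.89 FPKM in siWFDC21P-2 replicates 1 to 3, against 9.11 FPKM in siNC replicate 3. Its 3 knockdown libraries were all lower, at 73.6% (65.1 to 83.1%), 30.3% (25.6 to 35.8%) and 53.6% (46.9 to 61.3%) of the control. The fold change was -0.87 ± 0.36 (unadjusted p = 0.0442, limma adjusted p = 0.756). Without siWFDC21P-2 replicate 1 it was -1.10 with an adjusted p of 0.0648 (limma), and without the background term it was 1.28. The fit without siWFDC21P-2 replicate 1 called 902 genes in all, against 0 with all libraries, and none of the 21. siWFDC21P-2 replicate 1 lay nearest to siNC replicate 3, with 161 genes more than 1 log2 unit away, against 1229 in replicate 2 and 1105 in replicate 3.

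TAP1 had 6.63, 13.7 and 15.5 FPKM in siWFDC21P-2 replicates 1 to 3, against 21.1 FPKM in siNC replicate 3. Here replicate 1 was the lowest, at 31.5% of the control (28.5 to 34.8%), with 65.0% and 73.7% in replicates 2 and 3. The fold change was -0.85 ± 0.42 (limma adjusted p = 0.756), and without siWFDC21P-2 replicate 1 it was -0.50. TAP2, the partner of TAP1 in the transporter, was likewise lowest in replicate 1, with 2.89, 5.78 and 5.69 FPKM in siWFDC21P-2 replicates 1 to 3, against 4.96 FPKM in siNC replicate 3, but was higher than the control in replicates 2 and 3.

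HLA-C had 60.8, 59.8 and 60.8 FPKM in siWFDC21P-2 replicates 1 to 3, against 73.6 FPKM in siNC replicate 3. HLA-E had 68.4, 60.2 and 61.9 FPKM in siWFDC21P-2 replicates 1 to 3, against 77.2 FPKM in siNC replicate 3, and HLA-B 27.3, 29.5 and 28.5 FPKM in siWFDC21P-2 replicates 1 to 3, against 35.2 FPKM in siNC replicate 3. The knockdown libraries were lower for all 3 heavy chains, at 77.6 to 88.6% of the control with every counting interval below 100%. The fold changes were -0.28 ± 0.25 for HLA-C, -0.28 ± 0.27 for HLA-E and -0.30 ± 0.30 for HLA-B, about as large as their standard errors (limma adjusted p = 0.770, 0.779 and 0.789). B2M, their light chain, had 129.7, 159 and 158 FPKM in siWFDC21P-2 replicates 1 to 3, against 139.8 FPKM in siNC replicate 3, lower in replicate 1 and higher in replicates 2 and 3.

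IRF1 had 5.35, 4.77 and 4.87 FPKM in siWFDC21P-2 replicates 1 to 3, against 7.11 FPKM in siNC replicate 3. Its libraries were at 75.3%, 67.1% and 68.5% of the control, with counting intervals below 100%, and the fold change was -0.44 ± 0.29 (limma adjusted p = 0.756). ERAP1 was at 87.0%, 56.9% and 92.1% of the control. TAPBPL had 4.78, 5.17 and 6.04 FPKM in siWFDC21P-2 replicates 1 to 3, against 3.95 FPKM in siNC replicate 3, all higher, with a fold change of 0.35 ± 0.23 (limma adjusted p = 0.756).

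Replicates 2 and 3 of siWFDC21P-2 parted from replicate 1 in several genes. PSMB8 was at 174% and 160.0% of its control in replicates 2 and 3 and at 98.1% in replicate 1, TAPBP at 153% and 138% against 98.7%, and NLRC5 at 146% and 148% against 69.1%. Replicate 1 had 18 of the 21 genes lower and 3 higher than siNC replicate 3 (median log2 difference -0.19, against -0.01 over all genes). In replicate 2, 10 were lower and 11 higher, and in replicate 3, 8 were lower and 13 higher (0.01 and 0.08, against 0.04 over all genes in each). Of all tested genes, 52.3%, 46.4% and 45.7% were lower in replicates 1 to 3. The labels give these 3 libraries as replicates, and their library names end in different numbers whose meaning the labels do not state. CD14, which is high in monocytes, was at 1.98, 6.97 and 8.70 FPKM in replicates 1 to 3 and 1.11 FPKM in siNC replicate 3, while PTPRC and LYZ did not exceed 0.160 FPKM there. Its part in these values was not tested.

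The difference between the siRNAs was tested in the same model. None of the 21 genes passed (limma), 0 had an unadjusted p under 0.05, and over all genes 0 passed (0%), with 703 at an unadjusted p under 0.05 (5.402%). MICB was at -0.59 ± 0.31, PSMB10 at -0.61 ± 0.42, TAP1 at 0.96 ± 0.54 and CD274 at 0.92 ± 0.46 (siWFDC21P-1 minus siWFDC21P-2, log2 ± SE; limma adjusted p = 0.830 for each). The siRNAs were used in different backgrounds and their tables differ in naming style, so that siRNA, background and table style cannot be told apart in this difference.

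With both siRNAs pooled, IRF1 was the listed gene that lay below its control throughout. None of the 21 passed (limma, and limma-voom) and 2 had an unadjusted p under 0.05 (IRF1 and MICB). Over all genes 1 passed, or 0.00768%, and 1871 had an unadjusted p under 0.05 (14.4%). IRF1 alone lay below its own siNC library in all 6 knockdown libraries, 1 of 21, where 7.92% of all tested genes did so, and 0 of 21 lay above it in all 6, against 10.8%. The 6 libraries rest on 3 controls. The pooled fold change of IRF1 was -0.62 ± 0.18 (unadjusted p = 0.00786, limma adjusted p = 0.223). For MICB it was -0.45 ± 0.18, for PSMB10 -0.47 ± 0.22 and for PSMB8 0.39 ± 0.19 (limma adjusted p = 0.302, 0.371 and 0.382). The pooled values of other leading genes were near 0, with -0.04 ± 0.19 for HLA-B, 0.04 ± 0.16 for B2M and 0.05 ± 0.17 for NLRC5. TAP1 had -0.26 ± 0.30 and CD274 -0.31 ± 0.26, each of which turned positive without siNC replicate 3 (0.11 and 0.0522). That fit has no control for background 3, so its pooled values are those of siWFDC21P-1 alone and hold nothing of siWFDC21P-2. For B2M, the value was -0.0863 without either library of background 2, and for HLA-B it was 0.12 without siNC replicate 3 and 0.0659 without siWFDC21P-1 replicate 1. With no background term the pooled value was 0.14 for CD274 and -0.0521 for NLRC5, and with the naming style of the tables in its place it was -0.0334 for PSMB8.

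**Figure D4:**
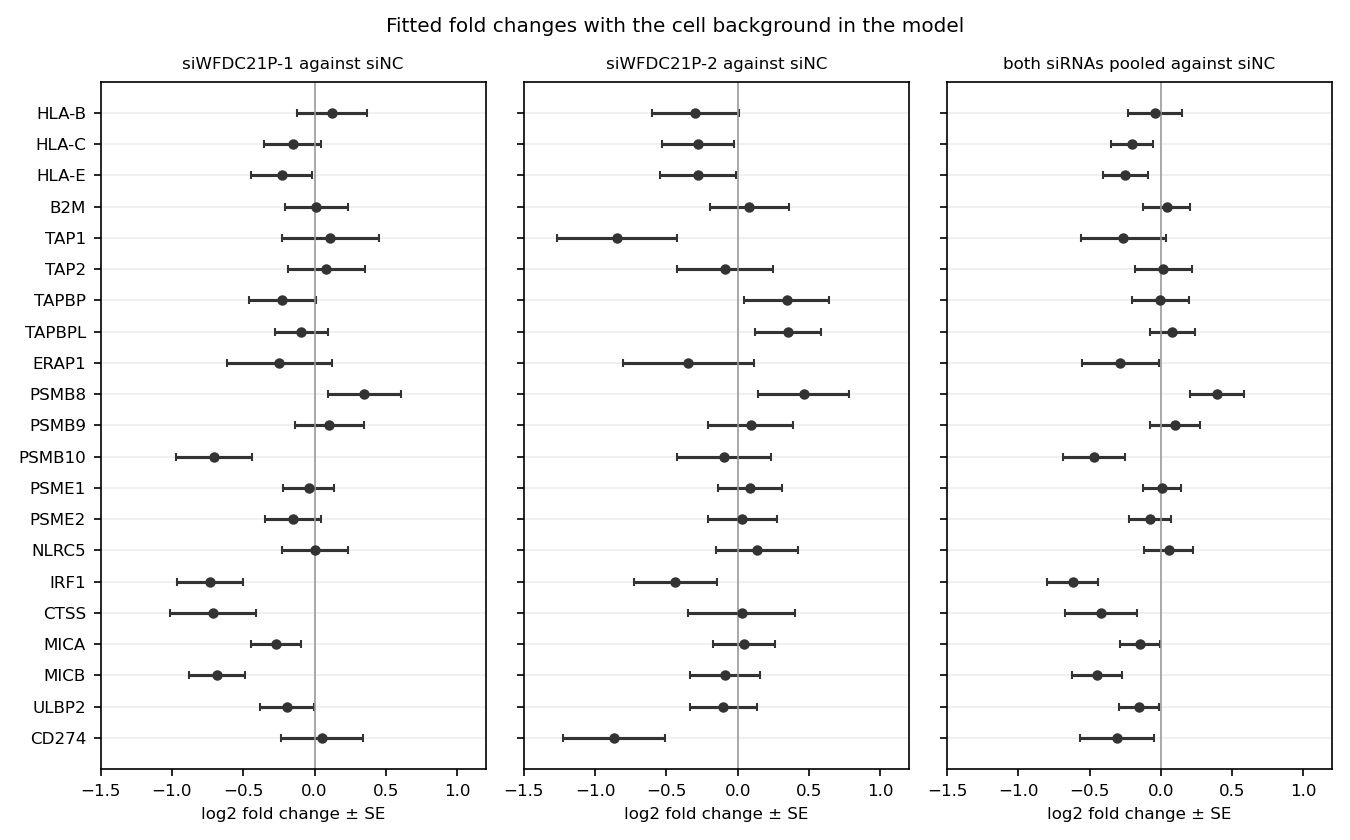
Fitted log2 fold changes (points) with standard errors (bars) of the 21 tested genes for siWFDC21P-1, siWFDC21P-2 and both pooled, each against siNC with the background in the model. No gene passed the adjusted threshold, IRF1 was negative in all 3 panels, and TAP1 and CD274 were negative for siWFDC21P-2 and above 0 for siWFDC21P-1.

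The wider pathway was examined with 5 lists of other genes. Of 22 tested genes of interferon signalling and class II transcription, 0 passed for either siRNA or both pooled (limma), with 1, 1 and 2 at an unadjusted p under 0.05. Over all genes 13.8%, 5.24% and 14.4% had such a p. The interferon receptor chain IFNAR1 had 9.61, 6.997 and 13.8 FPKM in siWFDC21P-1 replicates 1 to 3, against 16.7 and 18.5 FPKM in their controls (-0.71 ± 0.26, limma adjusted p = 0.294).

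The constitutive proteasome showed no call among 14 tested genes and none at an unadjusted p under 0.05 in any of the 3 comparisons (limma). Of 10 chaperones and glycan enzymes of the endoplasmic reticulum, GANAB rose with siWFDC21P-1 and with both siRNAs pooled. GANAB, the catalytic subunit of glucosidase II, which trims the glycans of new glycoproteins, had 92.6, 91.1 and 116 FPKM in siWFDC21P-1 replicates 1 to 3, against 24.9 and 37.8 FPKM in their controls (1.74 ± 0.16, limma adjusted p = 0.0442). It had 192, 201 and 182 FPKM in siWFDC21P-2 replicates 1 to 3, against 82.0 FPKM in siNC replicate 3 (1.22 ± 0.20, limma adjusted p = 0.756). This call did not hold in most alternatives. GANAB passed for siWFDC21P-1 in 6 of 19 alternatives, and pooled in 6 of 19, with adjusted p over them of 0.0254 to 0.708 and 0.0163 to 1.00 (limma) and a positive fold change in each. When 1 library was left out it passed in 2 of 9 fits for each of these comparisons, without siNC replicate 3 and without siWFDC21P-2 replicate 1. Without siNC replicate 3 the pooled fit is the siWFDC21P-1 fit, since background 3 has no other control, so the pass there is the same result. It also did not pass with the naming style of the tables, no background term, the replicate block, no filter, median-centred libraries or without background 2. Without siWFDC21P-2 replicate 1, 153 genes passed for siWFDC21P-1 and 204 pooled, none of them among the 21, and 3 passed pooled without siNC replicate 3 and 0 without any 1 of the 7 other libraries. Calreticulin (CALR), the chaperone of the peptide-loading complex, had 0.51 ± 0.19 with siWFDC21P-1 and 0.12 ± 0.24 with siWFDC21P-2 (limma adjusted p = 0.302 and 0.899).

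Neither the 8 tested genes of endolysosomal processing nor the 10 tested NK and checkpoint ligands held a call (limma). Of the 10 ligands, 2, 2 and 4 had an unadjusted p under 0.05 for siWFDC21P-1, siWFDC21P-2 and both pooled. Over all genes 13.8%, 5.24% and 14.4% did so. The 4 pooled were ULBP3, PVR and NT5E, which were lower, and CD276, which was higher than its control in all 6 libraries. Of the 10, 2 lay below their control in all 6 libraries and 1 above, where 7.92% and 10.8% of all tested genes did so. CD276 had 70.4, 61.2 and 16.3 FPKM in siWFDC21P-1 libraries, against 56.0 and 11.1 FPKM in their controls. It had 11.6, 20.2 and 18.9 FPKM in siWFDC21P-2 libraries, against 10.8 FPKM (pooled 0.44 ± 0.19, limma adjusted p = 0.344). ULBP3, a relative of ULBP2, had 1.75, 4.20 and 1.76 FPKM in siWFDC21P-1 replicates 1 to 3, against 5.29 and 4.15 FPKM in their controls (-0.81 ± 0.27, limma adjusted p = 0.264). PVR, a ligand of the NK receptor DNAM-1, was lower than its control in all 6 libraries, with 26.6, 38.0 and 18.4 FPKM in siWFDC21P-1 libraries against 45.6 and 24.3 FPKM in their controls, and 34.9, 23.0 and 27.2 FPKM in siWFDC21P-2 libraries against 43.0 FPKM (pooled -0.51 ± 0.17, limma adjusted p = 0.261). PDCD1LG2, which encodes PD-L2, had 7.54, 8.82 and 12.7 FPKM in siWFDC21P-2 libraries, against 14.4 FPKM in siNC replicate 3, and like CD274 it was low outside background 3 (at most 0.694 FPKM).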

How the data were processed

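Total RNA from cells labelled BT549 was sequenced in 9 libraries (siWFDC21P-1, siWFDC21P-2 and siNC, 3 each). The authors deposited one table of FPKM values by Ensembl gene for each library. HISAT2 2.1.0, Bowtie2 2.2.3, HTSeq 0.6.0 and hg38 are named, per the submitters' processing notes, without the step each served. Strand use is not given in the sources used here.

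Whole reads were recovered from the FPKM steps, to within 0.02 reads, for 26635 of 26636 common genes (99.996%). They gave the depth, the 95% counting intervals and a limma-voom alternative, which called 26 genes for siWFDC21P-1, 0 for siWFDC21P-2 and 1 for both pooled. A count of 0 allows 3 reads. No library was a duplicate of another (mean chi-square per gene 16.6 or more within backgrounds).

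Genes in all tables with a mean of at least 1 FPKM (13014) were fitted with limma 3.58.1 under R 4.3.3, as log2(FPKM + 1) over all 9 libraries, with group and cell background as terms, trended empirical Bayes variances and Benjamini-Hochberg adjustment at 0.05. Fold changes on this scale understate those of low genes. The pooled comparison had 1 knockdown term in place of the siRNA groups. Backgrounds are average-linkage clusters on 1 minus Pearson r, split at 0.15. The code was tested on simulated data. The alternatives were other background terms, pseudocounts, filters, scaling, voom, and leaving out libraries.

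The listed genes, the other gene lists and the backgrounds were chosen with earlier results of these data known. Fold changes are named for the 4 listed genes with the smallest p per comparison that share the sign of their median per-library difference, and for HLA-B, B2M, TAP1, NLRC5, CD274 and IRF1. Those of MICA and the other heavy chains, and those of the siRNA difference, were added after their values were seen. Values of a gene in the interferon list are not reported here. Gene positions are from GENCODE v29 and promoters from RefSeq. Python 3.11.15 and scipy 1.17.1 were used for the intervals.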

Additional observations from a re-analysis of the deposited data

Results flagged for a closer look

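CD274 was on opposite sides of its control with the 2 siRNAs. It was above the control in all 3 siWFDC21P-1 libraries, with 26 and 22 reads in replicates 1 and 2 against 16 in siNC replicate 1, and 5 reads in replicate 3 against 4 in the library labelled siNC replicate 2. It was below the control in all 3 siWFDC21P-2 libraries, with 479, 190 and 345 reads against 610 in siNC replicate 3. The difference between the siRNAs was 0.92 ± 0.46 on the log2 scale (SE) and did not pass (unadjusted p = 0.0833, limma adjusted p = 0.830). All 3 siWFDC21P-1 counting intervals included 100% of the control, so that a difference was not detectable there at this depth.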

How the results depend on the processing

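No listed gene passed in any of the 74 fits of an alternative and a comparison that were run under the 19 alternatives (limma; those with a mean of at least 5 FPKM held 13 of the 21 tested genes, the others all 21; lowest adjusted p 0.0648, for CD274 with siWFDC21P-2 without siWFDC21P-2 replicate 1). Of 309 alternative values of the 17 named fold changes, 297 kept their direction and 12 reversed, and 9 of the 17 reversed nowhere. Part of the 309 could not move. A filter leaves a fold change as it is, and with the background term siWFDC21P-2 rests on background 3 alone. Leaving out libraries of other backgrounds then returns the same value, as it does for siWFDC21P-1 without libraries of background 3. These counts therefore overstate how far the directions were checked. Without any background term CD274 became 1.28 for siWFDC21P-2 and 0.14 pooled, and NLRC5 pooled -0.0521. With the naming style of the tables in place of the background, PSMB8 pooled became -0.0334, and without background 2 B2M pooled became -0.0863. Leaving out 1 library moved CTSS with siWFDC21P-1 over -1.32 to 0.10, and, pooled, HLA-B over -0.16 to 0.12, B2M over -0.0863 to 0.21, TAP1 over -0.47 to 0.11 and CD274 over -0.51 to 0.0522. The pooled values without siNC replicate 3 (0.12 for HLA-B, 0.11 for TAP1 and 0.0522 for CD274) are those of siWFDC21P-1 alone. Background 3 then has no control. The cause of the other changes was not tested.

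Counts over all genes moved more. The 3 genes for siWFDC21P-1 became 0 with the naming style, without any background term, with no filter and with median-centred libraries, and 26 with a mean of at least 5 FPKM and with limma-voom. The 1 gene pooled became 0 under the first 4 of these, 0 without background 2 and 2 with a pseudocount of 0.1. With no filter, 17 genes passed for siWFDC21P-2 and 7 for the difference. Leaving out 1 library gave 0 to 153 genes for siWFDC21P-1, 0 to 902 for siWFDC21P-2, 0 to 182 for the difference and 0 to 204 pooled, the highest of each without siWFDC21P-2 replicate 1. The siWFDC21P-2 and difference comparisons could not be fitted without siNC replicate 3, and the pooled comparison then rested on siWFDC21P-1 alone.

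The replicate numbers did not pair the samples. Same-numbered deviations of siWFDC21P-1 and siNC libraries correlated at 0.667, -0.683 and -0.062, and those of siWFDC21P-2 and siNC at -0.118, 0.112 and -0.205. With the replicate block 0 genes passed in every comparison. When a gene had to lie at least 0.5 log2 units from its control in every library, the counts of 4, 2, 7, 2 and 1 listed genes on 1 side each became 0, where 1.88%, 3.59%, 1.56%, 1.62% and 0.20% of all tested genes did so. The lower depth of background 3, and the few reads of CD274 and PSMB8 in background 1, limit what can be seen there.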
